A study of Mus musculus with 18 samples.

Results

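Loss of cyclin C was compared with wild type in 3 mouse systems, namely embryonic stem (ES) cells, fibroblasts cultured from embryos and brain taken at E18.5, and the genes described here are those in which the genotypes parted the same way in all 3 systems. A gene was taken when its 3 knockout arrays all lay above, or all below, its 3 wild-type arrays in each system, with the same sign throughout. Of 17091 genes measured, 32 met this rule (0.187%), 19 of them higher (0.111%) and 13 lower (0.0761%) in the knockout. Each gene was represented by 1 probe set, the one with the highest mean over the 18 arrays.

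Cyclin C is the regulatory partner of the kinases CDK8 and CDK19. Together with MED12 and MED13, or their paralogues, they form the kinase module of Mediator, the large complex that carries signals from transcription factors to RNA polymerase II. The module attaches to Mediator reversibly, can block its contact with the polymerase, and phosphorylates transcription factors, so that both activation and repression of genes by it are known. Cyclin C also has a role in the cell cycle and in mitochondrial division.

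The 6 groups held 3 arrays each and the labels call them biological replicates. Wild-type samples, named control in their titles, and samples labelled CCNC-/- were taken from ES cells, from primary embryonic fibroblasts and from brain. The labels do not say how the allele was removed, whether the ES cells of a genotype were 1 clone, or whether animals were pooled, and they give no treatment. Whether the replicates came from separate animals or cultures is not stated beyond the word biological, so the p-values measure the spread between these samples. All values are log2 signals, deposited after normalization by the authors, and an effect is the mean of the knockout arrays minus the mean of the wild-type arrays in log2 units. In whole brain, a change in the number of cells of a type and a change in RNA per cell cannot be told apart.

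The mean signal of each system's own marker genes was high in that system: 12.15 to 12.70 for ES cell markers in the ES cell arrays against 6.53 to 6.67 elsewhere, 12.10 to 12.42 for fibroblast markers in fibroblasts, and 11.68 to 11.93 for neuron markers in brain. Knockout ES cell array 1 stood apart, with a mean of 9.63 over 6 extraembryonic endoderm markers where the other ES cell arrays had 6.97 to 7.39. That array lay furthest from wild type in 12 of the 19 higher genes and in 4 of the 13 lower ones. Without it the median ES cell effect of the higher genes was 0.34 in place of 0.42. That of the lower ones other than Ccnc stayed at -0.24. Leaving the array out took called mean effects from 11 to 15 among the 32 and from 51 to 155 among all 17091 genes. Other marker means moved with genotype without overlap. In fibroblasts the mean of 10 fibroblast markers was 12.37 to 12.42 in wild type and 12.10 to 12.12 in the knockout, that of 4 smooth muscle markers 11.83 to 12.05 and 12.27 to 12.49, and that of 5 epithelial markers 6.42 to 6.46 and 6.84 to 7.09. In ES cells the epithelial markers were 11.62 to 12.31 in wild type and 12.35 to 12.87 in the knockout, 3 choroid plexus markers were 7.29 to 7.46 and 7.65 to 7.93, and 10 neuron markers were 7.36 to 7.45 and 7.02 to 7.32. Neuron markers were also lower in knockout brain, at 11.68 to 11.76 against 11.82 to 11.93. The part of these shifts in the members' values was not tested. The arrays numbered 1 of ES cells and of fibroblasts, in both genotypes, had more signal of the Y-linked genes Ddx3y, Eif2s3y and Uty than the arrays numbered 2 and 3, while Kdm5d was higher in the fibroblast arrays numbered 1 and not in those of ES cells. In brain the sex-linked signal moved with genotype: Xist was 12.25 to 12.40 in wild type and 8.29 to 8.96 in the knockout, and the Y-linked Ddx3y was 7.80 to 8.57 and 8.79 to 9.01. None of the 32 genes lies on the X or Y chromosome. The part of sex in their brain values was not tested.

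Promoters are shown for 3 of the higher genes that kept a called mean effect in every setting tried, because they make 3 different products: a prostaglandin synthase, an inhibitor of NF-kappaB signalling and a sterol reductase. The windows come from RefSeq (GRCm38.p6), run 5′ to 3′ from 250 bases before to 50 bases after the annotated start, and lie on the minus strand. They are chr2:30903248-30903547 for Ptges, chr10:19015361-19015660 for the first of 2 starts of Tnfaip3, and chr1:169969156-169969455 for Hsd17b7. Capitals mark matches, on either strand, to the letters of 9 motifs.
Ptges: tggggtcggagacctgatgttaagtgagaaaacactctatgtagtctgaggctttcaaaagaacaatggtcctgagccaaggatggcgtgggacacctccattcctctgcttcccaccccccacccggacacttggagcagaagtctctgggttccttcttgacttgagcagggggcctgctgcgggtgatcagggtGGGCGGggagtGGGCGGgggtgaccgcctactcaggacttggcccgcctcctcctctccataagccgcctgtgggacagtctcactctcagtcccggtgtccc
Tnfaip3: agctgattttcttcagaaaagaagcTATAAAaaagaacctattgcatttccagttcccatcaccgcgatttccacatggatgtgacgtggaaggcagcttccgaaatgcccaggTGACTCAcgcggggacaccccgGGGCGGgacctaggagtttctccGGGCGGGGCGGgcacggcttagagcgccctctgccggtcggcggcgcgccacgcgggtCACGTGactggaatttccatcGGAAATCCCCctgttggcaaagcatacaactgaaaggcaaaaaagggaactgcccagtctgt
Hsd17b7: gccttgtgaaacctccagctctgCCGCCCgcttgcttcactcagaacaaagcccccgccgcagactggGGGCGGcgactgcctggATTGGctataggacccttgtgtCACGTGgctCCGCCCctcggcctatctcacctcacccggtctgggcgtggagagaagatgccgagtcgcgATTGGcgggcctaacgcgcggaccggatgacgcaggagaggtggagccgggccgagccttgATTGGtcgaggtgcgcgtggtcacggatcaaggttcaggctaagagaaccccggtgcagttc
In the Ptges window the capitals are a pair of GC boxes (GGGCGG). The Tnfaip3 window holds 3 GC boxes, of which a pair overlap, with 1 AP-1 element (TGANTCA), 1 NF-kappaB element (GGG, any pair of bases, then TTTCC), 1 E-box (CACGTG) and 1 TATA box (TATAAA). The Hsd17b7 window holds 3 GC boxes, 3 CCAAT boxes (CCAAT) and 1 E-box. RefSeq windows were found for 27 of the 32 genes, 33 windows in all. A GC box stood in 66.7% of these windows against 35.7% of all 32851 windows of the table, and the median GC content was 63.3% against 52.7%. The 32851 windows belong to 27025 genes and were not limited to the 17091 genes measured, so they include genes that could not be members. The AP-1 letters were in 18.2% (6 windows, those of Grm8, Havcr2, Lif, Palld, Rbm38 and Tnfaip3) against 7.81%, the CCAAT letters in 36.4% against 37.4%, the E-box in 9.09% against 7.15% and the TATA letters in 6.06% against 13.6%. The NF-kappaB letters were in 3.03% against 1.63%, and a sterol element (TCACNCCAC) in 3.03%, the window of Grm8, against 1.24%. A cyclic AMP element (TGACGTCA, 1.79% of all windows) and an E2F element (TTTCGCGC, 0.323%) were not found in the members' windows. These are descriptions of letters in short windows and show no bound factor.

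Ccnc, on chromosome 4, was the targeted gene and had the largest mean effect of the 17091. In ES cells its signal was 9.28, 9.47 and 9.14 in wild type and 6.68, 6.78 and 7.33 in the knockout. Fibroblasts gave 9.56, 9.61 and 9.54 against 8.28, 8.24 and 8.30. The brain values were 8.82, 8.65 and 9.24 against 8.17, 8.08 and 8.37. Every knockout array was low, and the signal left relative to wild type was greatest in brain. The mean effect over the 3 systems was -1.45 (SE 0.09, limma adjusted p = 3.26e-07), made up of -2.37, -1.29 and -0.69 in ES cells, fibroblasts and brain. The size differed among systems (limma F test, adjusted p = 0.00473), which was so for no other gene of the 32, against 177 genes (1.04%) of the 17091. A second, dimmer Ccnc probe set also met the rule, with a mean effect of -0.74. The position of either probe set relative to the deletion is not stated in the labels or files. Leaving Ccnc aside, the absolute mean effect of the other members ran from 0.13 to 0.54 with a median of 0.24, against a median of 0.06 over all genes. The rule asks for 1 sign and no overlap in every system, so a larger median than over all genes follows from it. Ccnc alone exceeded a 2-fold change.

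**Figure D1:**
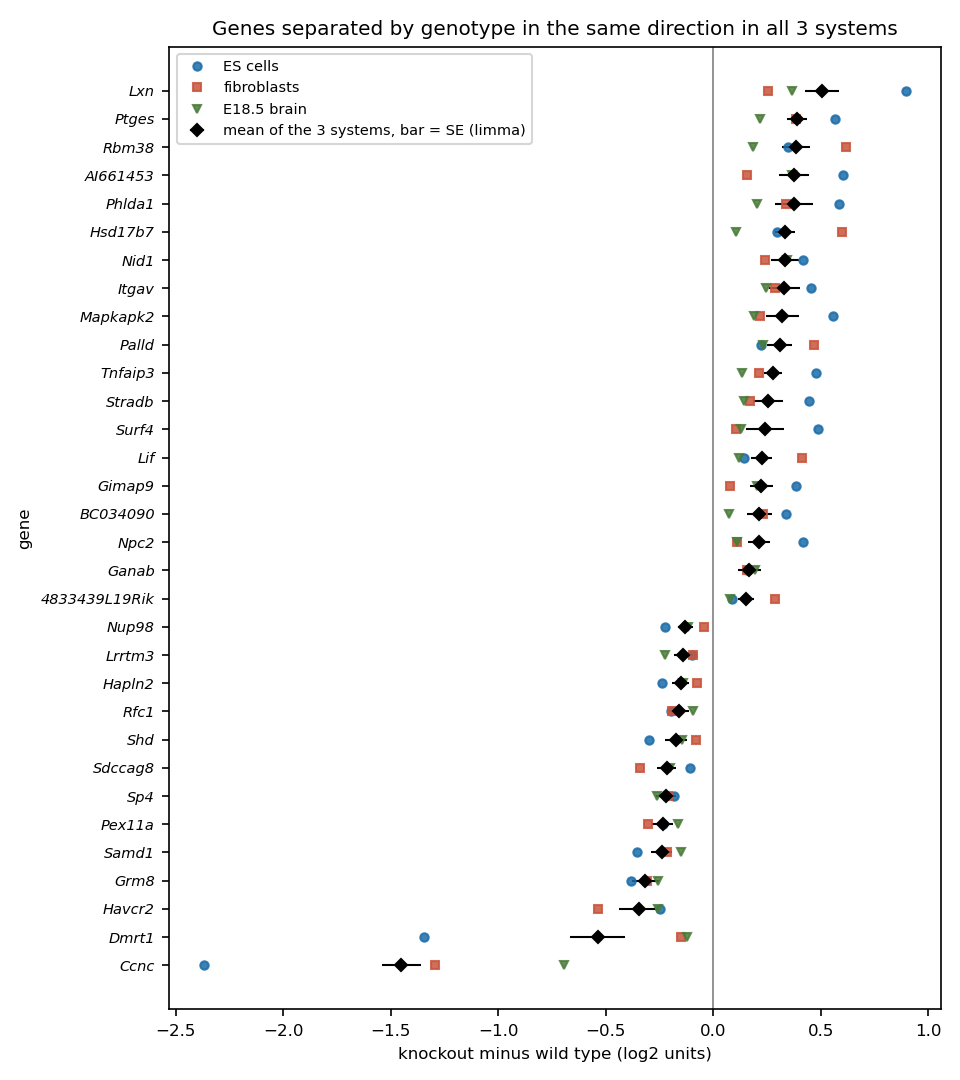
Knockout minus wild type in log2 units (x axis) for each of the 32 genes (y axis), in ES cells (circles), fibroblasts (squares) and E18.5 brain (triangles), with the mean of the 3 systems as a diamond and its limma SE as a bar. All 3 symbols of a gene lie on 1 side of 0 by the rule that chose it, and the ES cell symbol is the farthest from 0 in 21 genes, the fibroblast symbol in 8 and the brain symbol in 3.

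Mean effects were tested for all genes in 1 limma fit of the 18 arrays, with Benjamini-Hochberg adjustment over all of them. The fit called 51 genes (0.298%), 33 higher (0.193%) and 18 lower (0.105%), and 2082 genes had an unadjusted p under 0.05 where 854.55 would by the threshold alone. Of the 32 genes 11 were called, 8 higher (Lxn, Ptges, Rbm38, AI661453, Hsd17b7, Nid1, Palld and Tnfaip3) and 3 lower (Ccnc, Grm8 and Samd1). All 32 had an unadjusted p under 0.05. The choice of the 32 and this test use the same arrays, so a high share of calls among them follows from the rule and is no separate evidence. Same-numbered arrays of fibroblasts and of brain deviated together, and with the replicate number as a block in these 2 systems 34 genes were called (0.199%), 29 of them among the 51. Of the 11, Ccnc, Ptges, Tnfaip3, Hsd17b7, Lxn and Rbm38 were called in that fit. The other 5 were not, with adjusted p of 0.0871 for AI661453, 0.0918 for Grm8, 0.124 for Nid1, 0.0841 for Palld and 0.0918 for Samd1. The same 6 genes were called in each of the 13 settings besides the main fit, which include this block fit, and without each array in turn. The number of genes called depended on single arrays. It rose to 193 and 83 without wild-type ES cell array 1 or 3, and to 155 and 204 without knockout ES cell array 1 or 2. It fell to 28, 26 and 25 without wild-type fibroblast array 1, 2 or 3 and to 21 without knockout fibroblast array 2. Without wild-type brain array 1 it was 32, and without knockout brain array 2 or 3 it was 33 and 32.

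Ptges, one of the 19 higher genes, lies on chromosome 2 and encodes the inducible synthase that makes prostaglandin E2. Its ES cell signal was 8.15, 7.99 and 7.99 in wild type and 8.60, 8.49 and 8.74 in the knockout. In fibroblasts the values were 8.27, 8.30 and 8.27 against 8.56, 8.75 and 8.69. Brain had 7.48, 7.41 and 7.40 against 7.64, 7.63 and 7.68. The closest arrays of the 2 genotypes were more than 0.1 log2 units apart in every system, which held for Ptges, Nid1 and Ccnc among the 32. The mean effect was 0.39 (SE 0.05, limma adjusted p = 0.00103), from 0.57, 0.39 and 0.22 in ES cells, fibroblasts and brain. Without each array in turn the adjusted p stayed between 0.000669 and 0.00523.

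Tnfaip3, on chromosome 10, encodes A20, a ubiquitin-editing enzyme that limits NF-kappaB signalling and is itself a target of NF-kappaB. In ES cells it gave 7.64, 7.65 and 7.74 in wild type and 8.12, 8.20 and 8.14 in the knockout. Fibroblasts had 8.64, 8.53 and 8.59 against 8.88, 8.80 and 8.72. In brain the signals were 7.86, 7.80 and 7.92 against 7.93, 8.04 and 8.02. The brain groups came within 0.006 log2 units of each other, whereas the ES cell groups were 0.385 apart. Over the 3 systems the mean effect was 0.28 (SE 0.04, limma adjusted p = 0.00655).

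The other signalling genes among the higher ones were Lif, Mapkapk2, Phlda1 and Stradb. Lif encodes leukaemia inhibitory factor, the cytokine that keeps mouse ES cells undifferentiated, and its mean effect was 0.23 (SE 0.05, limma adjusted p = 0.0574), with 0.41 in fibroblasts and 0.14 and 0.12 in ES cells and brain. Mapkapk2, a kinase activated by p38, had a mean effect of 0.32 (adjusted p = 0.0791) and Phlda1, which encodes a pleckstrin homology-like protein, one of 0.38 (adjusted p = 0.0762). In both, knockout ES cell array 1 was the highest of its group: 10.41 beside 9.77 and 10.09 for Mapkapk2, and 10.56 beside 9.80 and 9.85 for Phlda1. Stradb, a pseudokinase partner of the kinase LKB1, had a mean effect of 0.25 (adjusted p = 0.138). None of these 4 was called, and in the fit with a block in fibroblasts and brain none was called either.

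Genes of sterol handling and of the secretory path were also among the higher ones. Hsd17b7, on chromosome 1, encodes a reductase of cholesterol synthesis. Its ES cell signal was 8.44, 8.31 and 8.40 in wild type and 8.80, 8.54 and 8.71 in the knockout. Fibroblast values were 9.63, 9.55 and 9.66 against 10.09, 10.24 and 10.30, and brain values 8.93, 8.95 and 8.82 against 9.04, 9.03 and 8.96. The fibroblast groups were far apart and the brain groups nearly touched. The mean effect was 0.33 (SE 0.05, limma adjusted p = 0.0063), from 0.30, 0.60 and 0.11 in ES cells, fibroblasts and brain. Npc2, the lysosomal protein that hands cholesterol out of the lysosome, had a mean effect of 0.21 (SE 0.05) and was not called (adjusted p = 0.082). Surf4, a cargo receptor between the endoplasmic reticulum and the Golgi, and Ganab, the catalytic subunit of glucosidase II in the endoplasmic reticulum, had mean effects of 0.24 and 0.17 (adjusted p = 0.263 and 0.177). For Surf4 the ES cell effect of 0.49 was 0.21 without knockout array 1, which stood at 10.79 beside 9.97 and 9.97.

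Matrix, adhesion and cytoskeleton were represented by Nid1, Itgav and Palld. Nid1 encodes nidogen-1, a linker protein of basement membranes. It gave 10.24, 10.28 and 10.28 in wild-type ES cells against 10.75, 10.39 and 10.91 in the knockout, 11.90, 11.86 and 11.73 against 12.02, 12.16 and 12.04 in fibroblasts, and 9.26, 9.41 and 9.08 against 9.52, 9.55 and 9.71 in brain. The groups were parted in each system by about the same small margin. The mean effect was 0.33 (SE 0.07, limma adjusted p = 0.0401), with 0.42, 0.24 and 0.34 in ES cells, fibroblasts and brain. Without each array in turn its adjusted p ran from 0.00347 to 0.107, and the call was lost without any fibroblast array, any knockout brain array, wild-type brain array 1 or 3, wild-type ES cell array 2 or 3, or knockout ES cell array 3, and under quantile normalization (adjusted p = 0.0619). Palld encodes palladin, a scaffold of actin bundles, and gave 0.22, 0.47 and 0.23, for a mean effect of 0.31 (SE 0.06, adjusted p = 0.023). Its call was lost without wild-type fibroblast array 1 or 3, knockout fibroblast array 2 or 3, or knockout brain array 2 or 3 (highest adjusted p = 0.0671), and under quantile normalization (adjusted p = 0.0548). The smooth muscle markers were higher and the fibroblast markers lower in the same knockout fibroblasts. Itgav, the integrin alpha V chain, had a mean effect of 0.33 (SE 0.07) and was not called (adjusted p = 0.0548).

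Lxn and Rbm38 belong to none of these groups. Lxn, which had the largest mean effect of the higher genes, encodes latexin, an inhibitor of carboxypeptidases. Its ES cell signal was 9.41, 9.12 and 9.39 in wild type and 10.52, 10.12 and 9.96 in the knockout. Fibroblasts gave 12.002, 11.957 and 11.989 against 12.08, 12.28 and 12.35. Brain gave 11.17, 11.14 and 11.24 against 11.49, 11.31 and 11.85. The knockout arrays were spread more widely than the wild-type arrays in all 3 systems, with SDs of 0.29, 0.14 and 0.27 against 0.16, 0.02 and 0.05 (n = 3 each). Its mean effect was 0.51 (SE 0.08, limma adjusted p = 0.00949), a 1.42-fold difference, from 0.90, 0.25 and 0.37.

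Rbm38 encodes an RNA-binding protein that controls the stability of messenger RNAs and is a known target of p53. In ES cells it gave 10.49, 10.43 and 10.60 in wild type against 11.09, 10.80 and 10.67 in the knockout. Fibroblasts had 8.93, 9.18 and 8.91 against 9.49, 9.79 and 9.59, and brain 8.53, 8.52 and 8.32 against 8.63, 8.61 and 8.69. The fibroblast difference was the widest, and the other systems had gaps of 0.07 and 0.08. Averaged over systems the effect was 0.38 (SE 0.06, limma adjusted p = 0.0148).

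The remaining higher genes are AI661453, Gimap9, BC034090 and 4833439L19Rik. AI661453 was called (mean effect 0.38, SE 0.07, limma adjusted p = 0.023), from 0.60, 0.16 and 0.36, and lost its call without wild-type fibroblast array 1, 2 or 3, knockout fibroblast array 2 or knockout brain array 3 (highest adjusted p = 0.0671). Gimap9, a GTPase of the immunity-associated family, was dim, with a mean of 5.53 over the 18 arrays, and had a mean effect of 0.22 (adjusted p = 0.0902). BC034090 and 4833439L19Rik had mean effects of 0.21 and 0.15 (adjusted p = 0.121 and 0.0902). Of the other 4 probe sets of 4833439L19Rik, 1 carried the same values and 3 did not meet the rule.

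**Figure D2:**
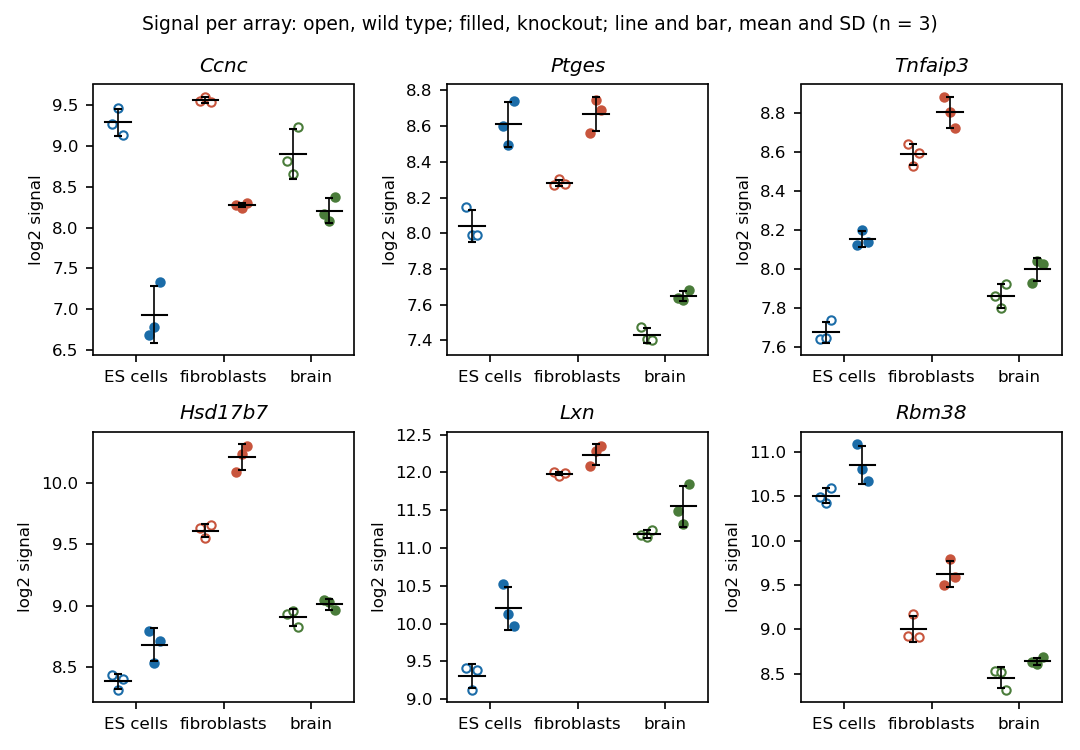
Log2 signal (y axis) of each array for the 6 genes called in every setting, by system, with wild type as open and knockout as filled circles and the group mean and SD (n = 3) as lines and bars. The knockout arrays sit below wild type for Ccnc and above it for the other 5, and the brain groups are the closest for Tnfaip3 and Hsd17b7, 0.006 and 0.0077 log2 units apart.

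On the lower side, Grm8 and Samd1 were called beside Ccnc. Grm8 encodes metabotropic glutamate receptor 8, an inhibitory receptor of synapses. Its signals were 6.27, 6.08 and 6.13 in wild-type ES cells against 5.89, 5.54 and 5.90 in the knockout, 6.37, 6.19 and 6.13 against 5.97, 5.95 and 5.85 in fibroblasts, and 7.42, 7.25 and 7.22 against 7.08, 6.92 and 7.12 in brain. The signal was low throughout and highest in brain. The mean effect was -0.31 (SE 0.06, limma adjusted p = 0.0339), with -0.38, -0.31 and -0.25. The call was lost without any fibroblast array, any knockout brain array, or wild-type brain array 1 or 2 (highest adjusted p = 0.0902), and under quantile normalization (adjusted p = 0.0548). The neuron markers, too, were lower in knockout brain.

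Samd1 encodes a chromatin protein that binds unmethylated CpG islands. It gave 11.39, 11.26 and 11.44 in wild-type ES cells against 11.03, 10.88 and 11.11 in the knockout, 9.97, 9.81 and 9.89 against 9.71, 9.65 and 9.66 in fibroblasts, and 9.86, 9.93 and 9.81 against 9.77, 9.80 and 9.57 in brain. The brain groups were 0.0042 log2 units apart. Samd1 had a mean effect of -0.24 (SE 0.05, limma adjusted p = 0.049). That call sat at the threshold and was lost without any fibroblast array, any knockout brain array, wild-type brain array 1 or 2, or wild-type ES cell array 3 (highest adjusted p = 0.119). It was also lost under quantile normalization, with every probe set, and with eBayes without trend or robust eBayes (adjusted p = 0.0592, 0.0565, 0.0517 and 0.0509).

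The other 10 lower genes were not called. Dmrt1, a transcription factor of testis development, had the second largest mean effect of the lower genes, -0.54 (SE 0.13, limma adjusted p = 0.085). Most of it came from ES cells (effect -1.34), where wild type gave 7.89, 7.74 and 6.78 and the knockout 5.63, 6.23 and 6.51. Dmrt1 signals were 4.56 to 4.80 in fibroblasts and 4.52 to 4.71 in brain, near the lowest value in the table (3.77), with effects of -0.15 and -0.12. Havcr2, which encodes the immune checkpoint receptor TIM-3, was as dim (mean 5.06) and had a mean effect of -0.35 (adjusted p = 0.117), with wild-type fibroblast array 2 at 6.43 beside 5.73 and 5.76.

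Nuclear and centrosomal genes among them were Sp4, Sdccag8, Rfc1 and Nup98. Sp4, a transcription factor of brain that binds GC boxes, had a mean effect of -0.22 (adjusted p = 0.0612), even across systems at -0.18, -0.21 and -0.26. Sdccag8, a centrosomal protein, was next to the threshold with a mean effect of -0.22 (adjusted p = 0.0519) and 5.84 mean signal. Rfc1, the large subunit of the clamp loader of DNA replication, and Nup98, a nucleoporin, had mean effects of -0.16 and -0.13 (adjusted p = 0.144 and 0.138). Pex11a, which acts in the division of peroxisomes, had a mean effect of -0.23 (adjusted p = 0.052). Its fibroblast groups were tight, with 8.15, 8.13 and 8.15 in wild type and 7.84, 7.83 and 7.85 in the knockout. Shd, an SH2 domain adaptor, Hapln2, a link protein of the brain's hyaluronan matrix, and Lrrtm3, a synaptic adhesion protein, had mean effects of -0.17, -0.15 and -0.14 (adjusted p = 0.163, 0.106 and 0.191).

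How near the edge many of these genes lay can be read from the gap between the closest arrays of the 2 genotypes. In 13 of the 32 genes the smallest gap was under 0.02 log2 units, and 3 had a gap over 0.1 in every system. Just inside the limit were Shd (0.0005), Sp4 (0.0016) and 4833439L19Rik (0.0034). Just outside were Lrp11, Cpt2 and Lpp, whose arrays overlapped by 0.0004, 0.0023 and 0.0042 and whose mean effects were 0.23, 0.26 and 0.31. A mean signal above that of the median gene was seen in 18 of the members.

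Within single systems the members were called unevenly. The rule asks for separation in these same arrays. Shares of calls above those of all genes therefore follow from the rule and are no separate evidence. Each system tested alone with limma called 1 member in ES cells, Ccnc (2 genes in all, 0.0117%), 18 members in fibroblasts (of 2058 genes, 12%) and 0 in brain (of 1 gene, 0.00585%). In brain 13 members had an unadjusted p under 0.05, as did 1252 of all genes. With the replicate number as a block 1 member was called there, of 15 genes in all. The 18 called in fibroblasts were 13 higher ones (7.11% of all genes were called higher) and 5 lower ones (4.93%). Under quantile normalization they were 12 higher (6.18%) and 6 lower (6.36%), as the fibroblast calls over all genes went from 1216 higher and 842 lower to 1057 and 1087. The spread between replicates differed among systems: the median SD per gene over wild-type arrays was 0.15 for ES cells, 0.06 for fibroblasts and 0.12 for brain, and over knockout arrays 0.16, 0.08 and 0.10. Median effects of the 19 higher genes were 0.42, 0.24 and 0.19 in ES cells, fibroblasts and brain, and those of the 12 lower genes other than Ccnc were -0.24, -0.20 and -0.16.

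The number of such genes was set against relabelling. Knockout and wild-type labels were exchanged within each system in all 8000 ways (20 in each), and the genes meeting the rule were counted each time. The mean count was 4.27, the median 3 and the highest 118, and 64 labellings gave 32 or more (exact permutation p = 0.008, 1-sided, smallest possible 0.00025). Labels were exchanged freely among the 6 arrays of a system, so the count over labellings ignores the pairing of same-numbered arrays and the sex-linked signal of the arrays numbered 1. The 32 observed were 7.5 times the mean over labellings. That count asks for separation and for direction at once, and the separation within single systems was already common: 2672 genes were parted in ES cells (15.6%, with 6.34% higher and 9.3% lower), 5284 in fibroblasts (30.9%, with 18.4% and 12.5%) and 2399 in brain (14%, with 7.98% and 6.06%). Multiplying each system's own shares of higher and of lower genes gives 28 genes, 15.9 higher and 12.1 lower, beside the 19 and 13 seen.

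Direction taken alone showed little agreement. Of the 120 genes (0.702%) parted in all 3 systems, 32 (26.7%) had 1 direction throughout. In 40 genes brain ran opposite to the other systems, in 30 fibroblasts did, and in 18 ES cells did, so that the mean of the 4 patterns was 30. Without the ES cell arrays numbered 1 in either genotype, 314 genes were parted in all 3 systems and 74 of them (23.6%) had 1 direction. After median centring 26 of 118 did, and after quantile normalization 28 of 100. The genes changed more than these counts: 25 of the 32 still met the rule after median centring and 18 after quantile normalization. Tnfaip3 failed it under both scalings, Hsd17b7 under median centring, and Palld and Samd1 under quantile normalization, and Ccnc, Ptges, Lxn, Rbm38, Nid1, Grm8 and AI661453 met it under both. The other 10 that failed under quantile normalization were 4833439L19Rik, BC034090, Ganab, Havcr2, Lrrtm3, Npc2, Nup98, Sdccag8, Shd and Surf4. Median centring likewise lost 4833439L19Rik, BC034090, Ganab, Nup98 and Phlda1. Over all genes, effects had the same sign in all 3 systems in 4028 (23.6%), 1929 higher and 2099 lower. Across the 17091 genes, which are not independent and in which the systems share no arrays, effects of ES cells and fibroblasts correlated at r = 0.09 (Spearman's rho 0.09), ES cells and brain at 0.01 (-0.03), and fibroblasts and brain at -0.09 (-0.11).

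**Figure D3:**
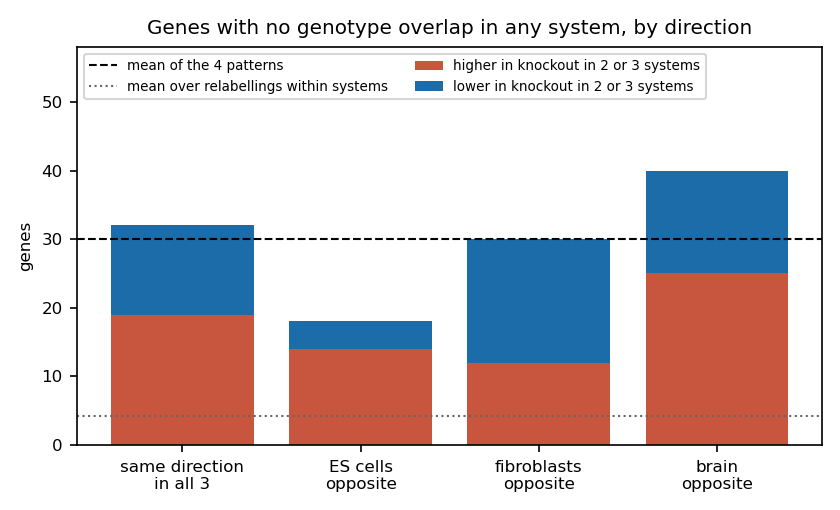
Number of genes (y axis) among the 120 with no overlap between genotypes in any system, by direction pattern (x axis), stacked by whether at least 2 systems were higher or lower in the knockout. The bars stand at 32, 18, 30 and 40 genes around their mean of 30 (dashed), and the dotted line at 4.27 is the mean count of genes with 1 direction over all relabellings.

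The called mean effect and the rule picked mostly different genes: 40 of the 51 called genes were not among the 32. In 29 of these 40 the 3 effects had the same sign, and brain was the system whose genotypes overlapped in 30, against 10 in ES cells and 9 in fibroblasts. The effect was largest in ES cells for 20, in fibroblasts for 19 and in brain for 1, Fgfbp3. Fgfbp3, which encodes a binding protein that releases fibroblast growth factors, had effects of 0.90, 0.26 and 1.15 in ES cells, fibroblasts and brain, for a mean effect of 0.77 (SE 0.12, limma adjusted p = 0.00655). Among the called genes 19 differed in size among the systems by the F test. The gene with the second smallest p, 4933402E13Rik on the X chromosome, had a mean effect of 1.15 (SE 0.09, adjusted p = 4.21e-06) that came from ES cells (3.33) and not from fibroblasts (0.08) or brain (0.05). Agtr2, the type 2 angiotensin receptor, and the chemokine gene Cxcl3 owed theirs to fibroblasts, with effects there of -1.94 and -1.90. Egr1, an immediate early transcription factor, owed its mean effect of -0.90 (SE 0.13, adjusted p = 0.00655) mainly to ES cells (-2.14), with -0.32 in fibroblasts and -0.23 in brain.

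Several called genes that missed the rule were even in direction. Gap43, a protein of growing axons, had effects of -0.80, -1.20 and -0.11 (mean -0.71, SE 0.09, limma adjusted p = 0.00279). H2ax, the histone H2A variant phosphorylated at DNA breaks, had -0.24, -0.70 and -0.04 (mean -0.33, SE 0.05, adjusted p = 0.00426). Tuft1, Dpp7 and Timp3, of which Timp3 encodes an inhibitor of matrix metalloproteinases, had mean effects of 0.45, 0.35 and 0.41 (adjusted p = 0.00655, 0.00655 and 0.00742) and overlapped in brain alone. H3f3b, which encodes histone H3.3, had -0.36, -0.40 and -0.14 (mean -0.30, SE 0.05, adjusted p = 0.023), a call lost without wild-type array 2 of ES cells, wild-type array 2 or 3 or knockout array 2 of fibroblasts, wild-type array 1 of brain or knockout array 2 of brain (highest adjusted p = 0.0671).

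**Figure D4:**
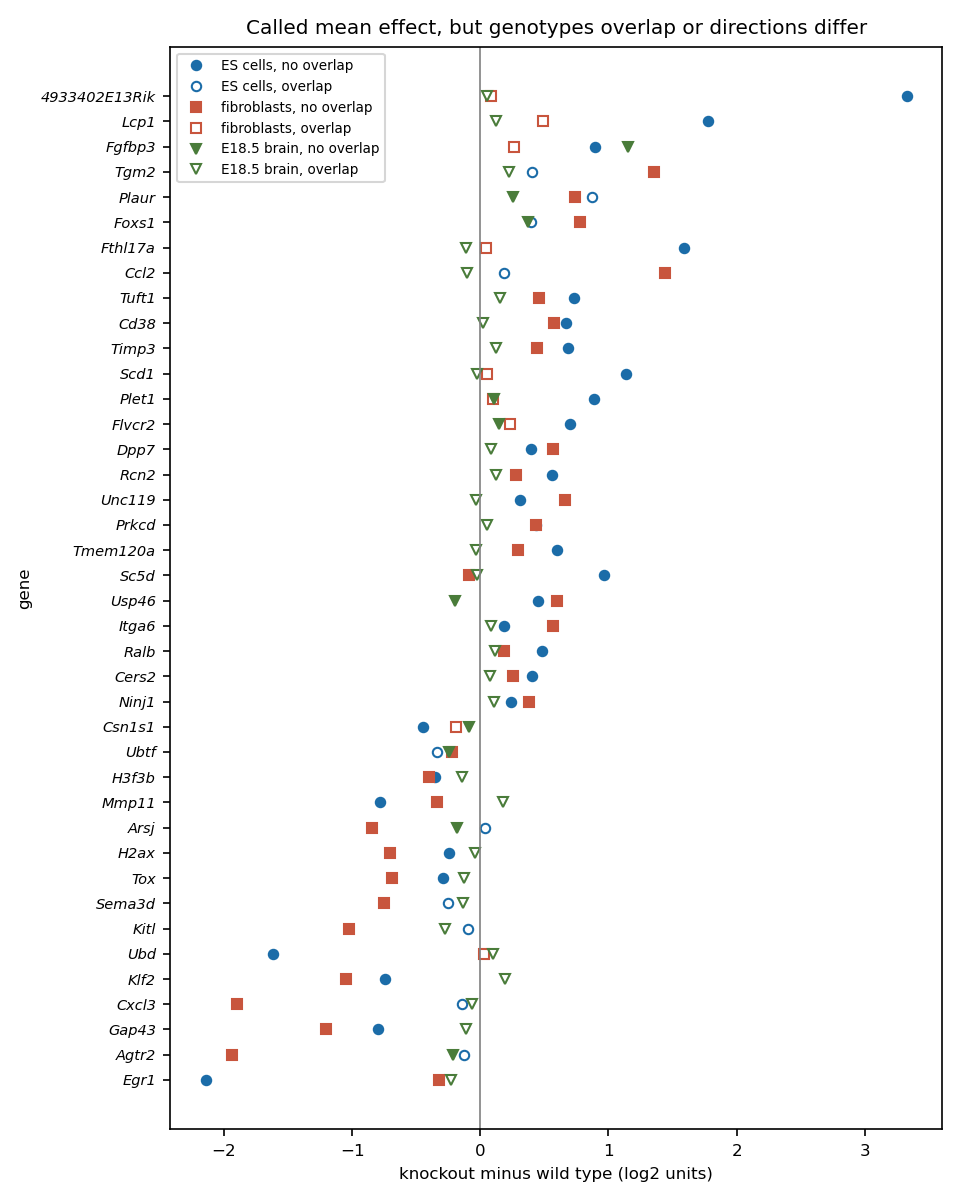
Knockout minus wild type in log2 units (x axis) for the 40 genes with a called mean effect that did not meet the rule (y axis), by system, with filled symbols where the genotypes did not overlap and open symbols where they did. The brain symbols are open in 30 genes. The brain symbol farthest from 0 is that of Fgfbp3 at 1.15, followed by that of Foxs1 at 0.37. Over all systems, 4933402E13Rik at 3.33 in ES cells is the farthest from 0.

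Gene lists for the Mediator kinase module and for pathways around it were set beside the members. In the module itself 7 genes were measured and Ccnc was the 1 called. Cdk8 had a mean effect of 0.11 (limma adjusted p = 0.349), with 0.37 in fibroblasts, and Cdk19 one of -0.09 (adjusted p = 0.562). None of 25 core Mediator genes was called, and none had an unadjusted p under 0.05. Of the 20 nearest genes to Ccnc on chromosome 4 that were measured, 0 were called by limma and 4 had an unadjusted p under 0.05, and none met the rule. Among these neighbours Usp45, a ubiquitin protease gene, had effects of 0.14, 0.17 and 0.21, and Tstd3 had 0.58, -0.86 and -0.35.

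Sterol and fatty acid synthesis was the list with the most calls. Of 25 genes measured, 3 rose, Hsd17b7, Sc5d and Scd1, none fell and 22 were not called, and 23 had a positive mean effect, against 47.3% of all genes. Hsd17b7 alone among them met the rule. Sc5d, a desaturase of cholesterol synthesis, had 0.97 in ES cells against -0.09 and -0.02 (mean 0.29, adjusted p = 0.0335, and 0.111 with the block in fibroblasts and brain). Scd1, the stearoyl-CoA desaturase, had 1.14 in ES cells against 0.05 and -0.03 (mean 0.39, adjusted p = 0.0403). The Sc5d call was lost without any fibroblast array, any wild-type brain array, knockout brain array 1 or 3, wild-type ES cell array 2 or knockout ES cell array 3 (highest adjusted p = 0.0911). That of Scd1 was lost without any fibroblast array, wild-type brain array 1 or 2, knockout brain array 2 or 3, or the same ES cell arrays (highest adjusted p = 0.107). Under quantile normalization both were lost (adjusted p = 0.0632 and 0.0988), and of the 3 Hsd17b7 alone was called. The list's median effects were 0.36, 0.05 and -0.06 in ES cells, fibroblasts and brain. Over all genes those medians were -0.03, 0.01 and 0.00. The lysosome and autophagy list, which holds the member Npc2, had 29 of 31 positive mean effects and a median mean effect of 0.15, with medians of 0.26, 0.14 and -0.01. None of its genes was called by limma, and 10 had an unadjusted p under 0.05, all of them higher.

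In the list of histone genes 2 of 13 fell, H2ax and H3f3b, and none rose. Among 31 serum response and immediate early genes 2 fell, Egr1 and Klf2, none rose and 29 were not called. The list as a whole leaned the other way, with 21 of the 31 mean effects positive and a median of 0.09. At an unadjusted limma p under 0.05, 9 of its genes were higher and 2 lower. Klf2, a transcription factor of the Krüppel-like family, had effects of -0.74, -1.05 and 0.20 in ES cells, fibroblasts and brain (mean -0.53, adjusted p = 0.023, and 0.0865 with the block in fibroblasts and brain). Its call was lost without wild-type fibroblast array 1 or 2, knockout fibroblast array 2 or 3, wild-type brain array 1 or knockout brain array 3 (highest adjusted p = 0.0623). Of 10 neuron markers, Gap43 fell. In ES cells and fibroblasts, where Gap43 had its largest effects, the mean of the 10 markers was 6.90 to 7.45. Gap43 itself was brighter in fibroblasts, at 10.17 to 10.52 in wild type and 9.01 to 9.32 in the knockout. In ES cells it was 7.84 to 8.44 and 7.11 to 7.68.

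No gene of the remaining pathway lists was called by limma. An unadjusted p under 0.05 was reached by 12.2% of all genes, which is the background for the counts given. TGF-beta and BMP targets (27 genes) had a median of 0.19, with 0.10, 0.11 and 0.06 in ES cells, fibroblasts and brain. At an unadjusted p under 0.05, 10 of them were higher and 0 lower. The p53 targets (27) had a median of 0.12, with 0.13, 0.09 and -0.02 in the same order. Of these, 7 were higher and 1 lower at an unadjusted p under 0.05. For ATF4 and unfolded protein response genes (24) the median was -0.09, with -0.26 in ES cells, and 7 genes had an unadjusted p under 0.05, all lower. Proteasome subunits (23) all had negative mean effects, with a median of -0.08 and 1 gene at an unadjusted p under 0.05. Their medians were -0.07, 0.05 and -0.15 in ES cells, fibroblasts and brain, so the fall was not shared by fibroblasts. G2/M genes (21) had medians of 0.06, -0.34 and 0.15 in ES cells, fibroblasts and brain, and E2F targets of G1/S (27) had -0.10, -0.22 and 0.08, with 2 and 4 genes at an unadjusted p under 0.05. In Notch pathway genes (32) the medians were -0.07, 0.06 and 0.08 and 4 genes had an unadjusted p under 0.05. Interferon-stimulated genes (30) had medians of -0.05, 0.00 and 0.08 and 5 such genes.

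**Figure D5:**
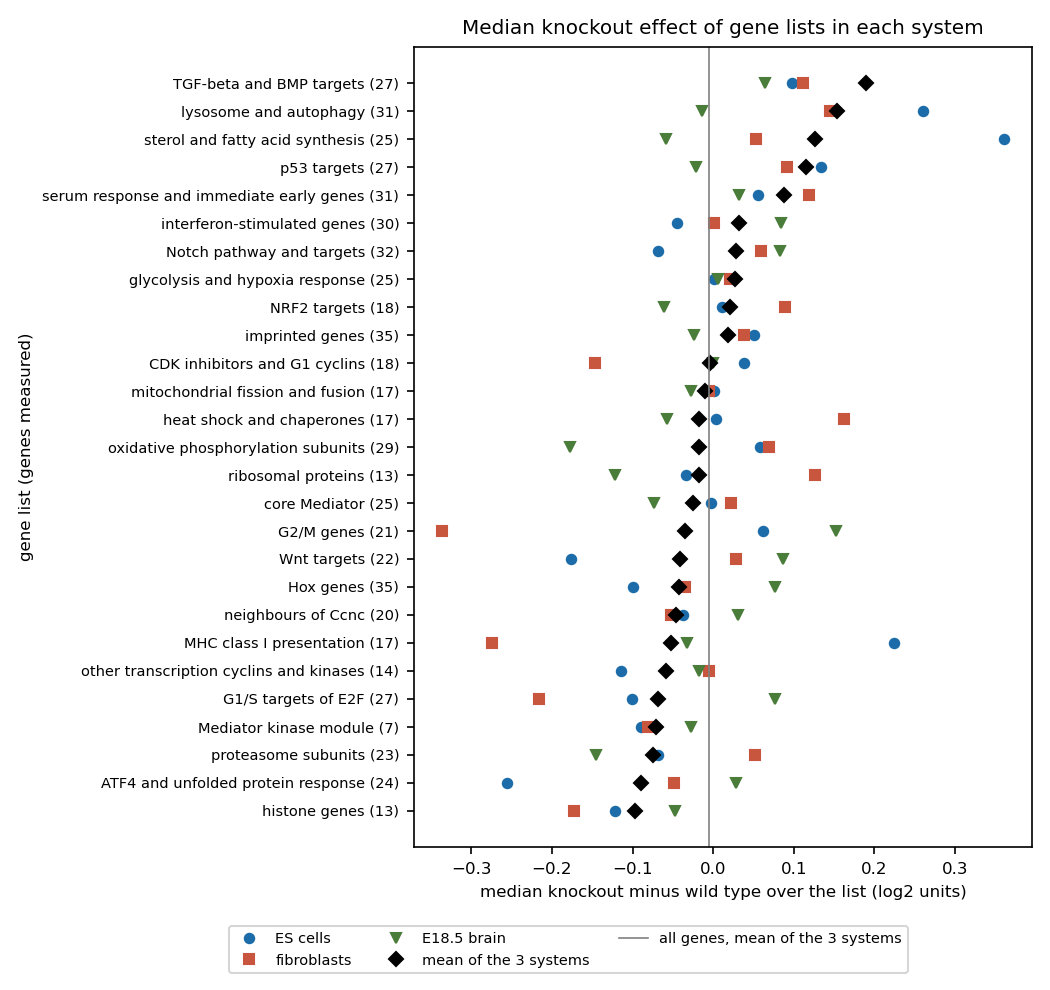
Median knockout minus wild type over the genes of each list, in log2 units (x axis), for 27 lists with their number of measured genes (y axis), by system and for the mean of the 3 systems (diamonds), with the median mean effect of all genes as a line. The systems part for G2/M genes, at 0.06, -0.34 and 0.15. All of them lie above the line for TGF-beta and BMP targets, serum response and immediate early genes, and glycolysis and hypoxia response. They lie below it for the Mediator kinase module and histone genes.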

How the data were processed

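RNA of 18 samples was measured on single-colour arrays with Affymetrix control probe sets. The log2 values were deposited by the authors after RMA, as the submitters' processing notes say; no source used here gives the version of RMA, the array type or the chip definition. RMA makes distributions alike among arrays normalized together, so a shift of most genes may not show. The labels do not say whether all 18 arrays were normalized together. Quantile normalization of the gene values still changed the calls, so these values were not fully alike as used. Of 24185 probe sets, 64 were controls and 22560 matched 1 RefSeq gene (GRCm38.p6), giving 17091 genes. A further 1561 matched none and were left out, and 1 of them met the rule. Arrays give no read depth, and their number limits the precision.

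The members, gene lists and tests were chosen with earlier results of these data known. Mean effects came from limma 3.58.1 in R 4.3.3 (6 group means, average of 3 differences, eBayes with trend, Benjamini-Hochberg over all genes, called under 0.05, 12 residual degrees of freedom), and sizes among systems from its F test. The fit was tested on simulated data. Figures used matplotlib 3.10.9 in Python 3.11.15. Named genes are members, genes at the limit, the 10 called genes in each direction with the smallest p, those with the smallest p of each list, and neighbours of Ccnc. Genes of the closing section outside this rule are those whose effect differed among systems. Deviations of same-numbered arrays correlated at 0.36, 0.16 and 0.19 in fibroblasts and 0.29, 0.35 and 0.47 in brain, but at 0.37, 0.32 and 0.08 in ES cells. Arrays of different numbers reached at most 0.14 in fibroblasts, 0.01 in brain and 0.2 in ES cells, so the numbers were taken to pair fibroblast and brain arrays, from the values and not from the labels. Alternatives were replicate blocks, other probe set choices, a 40th percentile filter, quantile normalization, median centring, other eBayes priors, weights, and left-out arrays. Added after seeing the data were the block in 2 systems only and a gap over 0.1.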

Additional observations from a re-analysis of the deposited data

Results flagged for a closer look

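The knockout effect differed in size among the 3 systems for 19 of the 51 genes with a called mean effect (limma F test over all genes). The adjusted p of the difference was 5.01e-07 for 4933402E13Rik, 0.000667 for Fthl17a, 0.00156 for Sc5d and for Ubd, 0.00929 for Scd1, 0.0122 for Egr1, 0.0138 for Mmp11, 0.0219 for Lcp1, 0.0252 for Plet1 and 0.0465 for Tmem120a, all with their largest effect in ES cells. For Agtr2 it was 0.00156, for Ccl2 0.00191, for Cxcl3 0.00369, for Usp46 0.0155, for Arsj 0.0194, for H2ax 0.0201, and for Unc119 and Klf2 0.0311, all largest in fibroblasts. Ccnc, the targeted gene, had 0.00473 and its largest effect in ES cells. In 8 of the 19 the sign was the same in all 3 systems.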

How the results depend on the processing

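None of the 72 genes that were called or met the rule changed direction under any setting run, and Ccnc stayed between -1.517 and -1.395 without each array in turn. The 51 called mean effects became 414 with the replicate block in all 3 systems (all 51 among them), 402 without the ES cell arrays numbered 1, 291 with array weights and 88 with 1 spread per system, and 21 to 204 without each array in turn. The 32 genes of the rule became 268 when the sign of all 9 numbered pairs was asked for in place of separation, 74 without the ES cell arrays numbered 1, 3 with a gap over 0.1 in every system, and 36 to 62 without each array in turn, which by construction keep the 32. Its 28 genes under quantile normalization hold 18 of the 32, and its 26 under median centring 25. The 177 genes differing among systems became 679 with the replicate block, 409 with 1 spread per system, 1341 with array weights, 767 without the ES cell arrays numbered 1, and 40 to 410 without each array in turn. In systems alone, 1 fit of all 18 arrays called 632, 210 and 0 genes in ES cells, fibroblasts and brain, in place of 2, 2058 and 1. The replicate block gave 1 in ES cells and 15 in brain. ES cells had 1 with the mean of probe sets or the 40th percentile filter, 4 with array weights and 6 without the arrays numbered 1, and brain 2 with every probe set. Left-out arrays gave 0 to 6, 900 to 2609 and 1 to 2. The share of calls that were higher was 64.7%, 59% after quantile normalization and 57.6% after median centring. The replicate block in all systems rests on ES cell pair 3, whose correlation was 0.08, so it is given here and not as the paired result. The causes of these shifts were not tested.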
